A study of Rattus norvegicus with 4 samples.

Results

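The genes described here are 10 genes that interferons are known to induce: Irf1, Irf7, Mx1, Mx2, Oas1a, Ifit2, Ifit3, Gbp2, Rsad2 and Eif2ak2. They were chosen by name, and each was found in the deposited table through its RefSeq accession. Of the 10 genes, 8 had a value on all 4 arrays, with 1 row each. Ifit3 and Rsad2 were blank on all 4 arrays and entered only the description of promoters. The whole table held 18350 measured rows, 6963 named genes among them.

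The arrays measured RNA of colon tissue from male Sprague Dawley rats, with 2 arrays in the control group and 2 in the group that received mesenchymal stem cell transplantation (MSCT). The sample titles number the arrays as replicates. The titles and the paper do not say whether an array held 1 rat or a pool, and each was taken as 1 rat. According to the labels and the methods, the MSCT rats had colitis induced with TNBS (2,4,6-trinitrobenzene sulfonic acid, instilled into the colon to model inflammatory bowel disease, IBD) and were then given GFP-labeled mesenchymal stem cells (MSCs) through the tail vein. The sample labels call the control animals normal rats, whereas the design text of the series and the paper call them IBD controls, and they are called control rats below. The labels give no age and no day of sampling, and the methods and results of the paper place the chips on different days.

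Interferons are secreted proteins that warn tissue of infection. Type I interferons signal through the receptor chains Ifnar1 and Ifnar2 to a complex of transcription factors that holds Stat2 and Irf9 and binds the interferon-stimulated response element (ISRE). Interferon gamma, made by T cells and natural killer cells, signals through Ifngr1 and Ifngr2 and acts at the gamma-activated site (GAS). In the colon these signals act on epithelium as well as on leukocytes of the mucosa, and the genes they induce are widely used as a readout of interferon exposure.

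The table holds linear intensity, the brightness of a transcript's spots in arbitrary units, and differences are given as log2 intensity of the MSCT group minus that of the control group. The median intensity of an array lay between 847.6 and 892.7. Across all rows, control replicate 2 correlated more with MSCT replicate 2 (Pearson's r = 0.959) than with control replicate 1 (r = 0.953). Epithelial and smooth muscle markers were bright on every array, with mean log2 intensities between 13.69 and 13.95 over 8 epithelial markers and between 14.77 and 15.06 over 5 smooth muscle markers, so the defining genes of the labelled tissue were present. A row passed the study's screen when its unadjusted p was under 0.05 and its fold change over 2, with p taken from limma, a linear model that shares the variance estimate between rows. No row of the table passed an adjusted p of 0.05 (Benjamini-Hochberg over all rows, limma), while 2196 rows had an unadjusted p under 0.05.

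Among the interferon-induced genes, Mx1 was higher in the MSCT rats and passed the screen. The other 7 measured genes did not. Of the 8 genes, 3 were higher and 5 lower in the MSCT group, with differences from -0.96 for Ifit2 to 1.21 for Mx1. Among all rows 48.0% were higher, and among the 6963 named genes 3882 were. Of all rows, 4.63% passed the screen in either direction, 2.12% as higher and 2.51% as lower. The median difference of the 8 genes was -0.19, against -0.02 over all rows and 0.05 over all named genes, and without Mx1 it was -0.29. The groups did not overlap in 2 of the 8 genes, Mx1 and Ifit2, while they did not overlap in 45.8% of all rows. As the tissue was measured in bulk, a change in the number of cells that express a gene and a change in RNA per cell cannot be told apart.

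**Figure D1:**
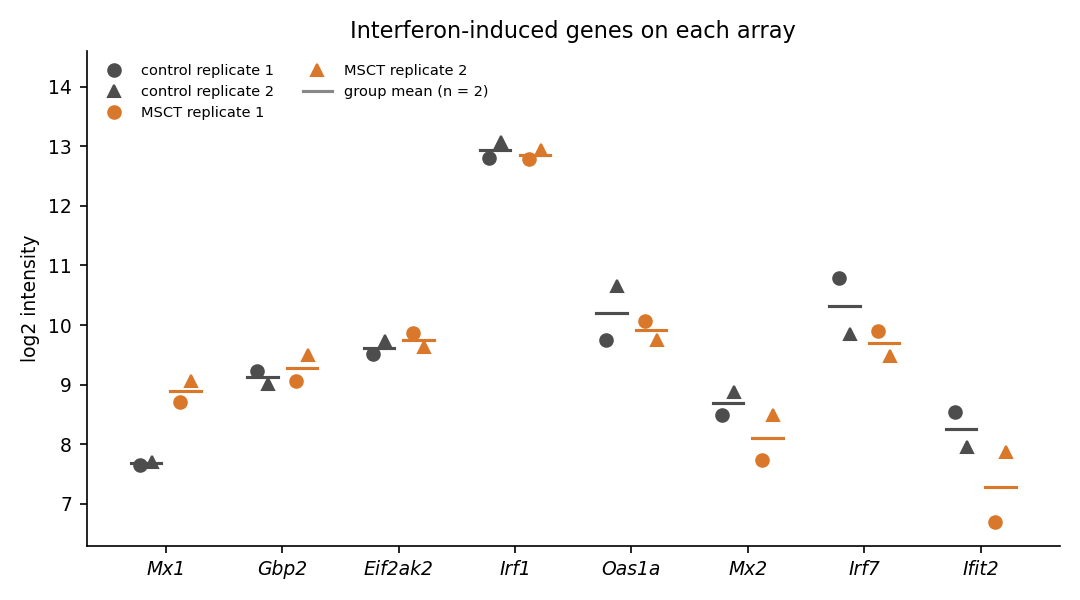
Log2 intensity (y axis) of the 8 measured interferon-induced genes (x axis, ordered by difference) on each of the 4 arrays. Circles are replicate 1, triangles replicate 2, grey the control group, orange the MSCT group, and bars the group means (n = 2). For Mx1 both MSCT arrays lie above both control arrays, for Ifit2 both lie below, and for the other 6 genes the groups overlap.

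The promoters of the measured genes are shown first for the gene that passed the screen and for 3 others that carry the motifs interferon signaling is known to use. Each sequence is the RefSeq window of GRCr8 from 250 bases before to 50 bases after the start that the reference table uses, 5′ to 3′ on the strand of the gene. Capitals mark the core letters of the ISRE (GAAANNGAAA, or TTTCNNTTTC where it lies on the opposite strand) and of the GAS (TTCNNNGAA, the same on both strands). Mx1 is at chr11:50294557-50294856 (minus strand), Oas1a at chr12:41330216-41330515 (plus), Irf7 at chr1:205799974-205800273 (minus) and Irf1 at chr10:38417685-38417984 (plus).
Mx1: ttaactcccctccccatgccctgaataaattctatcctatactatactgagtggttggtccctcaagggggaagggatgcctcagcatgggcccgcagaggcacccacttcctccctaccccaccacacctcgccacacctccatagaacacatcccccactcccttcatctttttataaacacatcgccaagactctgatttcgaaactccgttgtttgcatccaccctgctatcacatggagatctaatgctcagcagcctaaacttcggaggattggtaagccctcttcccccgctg
Oas1a: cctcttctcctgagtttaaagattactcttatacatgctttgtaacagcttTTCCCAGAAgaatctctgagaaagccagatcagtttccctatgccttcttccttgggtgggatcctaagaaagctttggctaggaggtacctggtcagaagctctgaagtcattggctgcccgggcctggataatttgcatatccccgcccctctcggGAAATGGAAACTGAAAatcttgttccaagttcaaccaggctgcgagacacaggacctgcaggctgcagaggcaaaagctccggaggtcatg
Irf7: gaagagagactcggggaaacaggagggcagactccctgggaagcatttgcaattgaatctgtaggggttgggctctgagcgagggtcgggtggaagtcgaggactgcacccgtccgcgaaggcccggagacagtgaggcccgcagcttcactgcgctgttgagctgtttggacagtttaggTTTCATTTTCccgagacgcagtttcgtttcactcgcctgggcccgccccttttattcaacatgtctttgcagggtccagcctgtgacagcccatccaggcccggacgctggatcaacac
Irf1: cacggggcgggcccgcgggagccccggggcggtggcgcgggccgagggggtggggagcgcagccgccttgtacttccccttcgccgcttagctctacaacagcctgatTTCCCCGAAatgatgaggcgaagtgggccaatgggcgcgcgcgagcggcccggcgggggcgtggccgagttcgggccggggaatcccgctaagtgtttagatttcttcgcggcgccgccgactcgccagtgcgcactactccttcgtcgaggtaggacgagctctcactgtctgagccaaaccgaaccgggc

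The table held a promoter for 8 of the 10 genes. Mx2 and Ifit2 had no entry. The ISRE core was present in 6 of the 8 windows (Irf7, Oas1a, Gbp2, Eif2ak2, Ifit3 and Rsad2), against 3.92% of all 33469 promoters in the table. Among the 6 windows of measured genes, 4 held it. The GAS core was present in 2 of the 8 windows (Irf1 and Oas1a), against 8.87%. Oas1a held 2 ISRE cores that overlap each other, GAAATGGAAA and GAAACTGAAA, which begin 41 and 35 bases before its start. The Eif2ak2 core, GAAAACGAAA, begins 16 bases before the start, and the Gbp2 core, TTTCACTTTC on the opposite strand, 31 bases before it. Mx1 was the 1 gene of the 8 with neither set of letters in its window. The 4 measured genes with an ISRE core differed by -0.63 (Irf7), -0.29 (Oas1a), 0.13 (Eif2ak2) and 0.16 (Gbp2), so that 2 of them were lower and 2 higher in the MSCT group. A match of letters is a description of the window and not evidence that a factor binds there. The lack of a match, as for Mx1, does not show that a gene has no such element. An element outside the window, or with other letters, would be missed.

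Mx1 encodes a GTPase of the dynamin family that restricts viruses inside the cell. Its intensity (NM_173096) was 201.7 and 209.5 in the 2 control rats and 420.9 and 535.9 in the 2 MSCT rats. Both MSCT rats thus lay above both control rats, which differed from each other by little. On the log2 scale Mx1 rose from 7.68 ± 0.04 to 8.89 ± 0.25 (SD, n = 2 each), a difference of 1.21 (standard error 0.22, 95% interval 0.63 to 1.78) or 2.31-fold. Its adjusted p was 0.265 by limma, so it passed the screen but not an adjusted threshold, and its rise ranked 328 among all rows. Mx1 was a dim row, at percentile 27.2 of mean intensity. With each array left out in turn its difference lay between 1.03 and 1.38. Such a fit has a group of 1 array, which is assumed to vary like the 2 arrays of the other group, so its p-values, here and below, carry little weight.

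Mx2, the neighboring gene on chromosome 11 and the nearest relative of Mx1 in this list, went the other way in its group means. Its intensity was 359.9 and 472.7 in the control group and 212.4 and 360.4 in the MSCT group. The highest MSCT array and the lowest control array were almost level, and the groups overlapped. The difference was -0.58 (standard error 0.34, 95% interval -1.48 to 0.33; limma adjusted p = 0.555). How far probes of these related transcripts share signal cannot be read from the deposited values.

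Irf1 and Irf7 encode the transcription factors of the list: Irf1 is induced strongly by interferon gamma, and Irf7 amplifies the production of type I interferon. Irf1 was a bright row, at percentile 93.8 of mean intensity, with intensities of 7162.1 and 8613.6 in the control group and 7042.1 and 7799.2 in the MSCT group. MSCT replicate 1 lay just under the control range and MSCT replicate 2 inside it. Its difference was -0.08 (standard error 0.21), and its 95% interval, -0.64 to 0.47, excluded a change of 2-fold in either direction. Irf7 had intensities of 1770.2 and 924.5 in the control group and 958.2 and 717.4 in the MSCT group. Control replicate 1 stood apart, while control replicate 2 lay below MSCT replicate 1. The difference of Irf7 was -0.63 (standard error 0.39, 95% interval -1.66 to 0.41; limma adjusted p = 0.571). It was -1.09 without control replicate 2 (limma, unadjusted p = 0.0295, past the screen with the spread of the MSCT arrays alone) and -0.16 without control replicate 1.

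Oas1a, Ifit2 and Eif2ak2 encode effectors that act on viral RNA or its translation. Oas1a makes the short oligoadenylates that activate RNase L. Its intensity was 858.7 and 1606.6 in the control group and 1076.5 and 860.1 in the MSCT group. Control replicate 2 was the highest array and control replicate 1 the lowest, so both MSCT arrays fell inside the control range. The difference was -0.29 (standard error 0.37, 95% interval -1.27 to 0.70), and it changed sign to 0.16 without control replicate 2. Related genes of the same cluster, Oas1b, Oas1f and Oas1h, were dim and differed by -0.16, 0.65 and 0.32, with limma adjusted p-values from 0.553 to 0.874.

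Ifit2, whose protein is an interferon-induced inhibitor of translation, was a dim row, at percentile 19.3 of mean intensity, and had the widest interval of the 8 genes. Its intensity was 373.1 and 248.8 in the control group and 104.3 and 234.8 in the MSCT group. Both MSCT arrays lay below both control arrays, though MSCT replicate 2 was close to control replicate 2. The difference was -0.96 (standard error 0.47, 95% interval -2.23 to 0.30; limma adjusted p = 0.504), smaller than the gap of 1.17 between the MSCT arrays. Without MSCT replicate 2 it was -1.55 (limma, unadjusted p = 0.0137, past the screen with the spread of the control arrays alone), and without MSCT replicate 1 it was -0.38. Ifit3, next to Ifit2 on chromosome 1, was blank.

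Eif2ak2 encodes the kinase PKR, which stops translation when it binds double-stranded RNA, and Gbp2 a guanylate-binding GTPase induced mainly by interferon gamma. Eif2ak2 had intensities of 731.0 and 847.5 in the control group and 935.1 and 789.0 in the MSCT group. Gbp2 had intensities of 603.5 and 513.9 in the control group and 536.3 and 724.1 in the MSCT group. In both genes the groups overlapped. The differences were 0.13 (standard error 0.21, 95% interval -0.44 to 0.69) for Eif2ak2 and 0.16 (standard error 0.24, 95% interval -0.49 to 0.81) for Gbp2. With Irf1, these were the 3 genes whose interval lay within 2-fold in both directions. The intervals of the 4 others that did not pass the screen, Irf7, Mx2, Oas1a and Ifit2, included 0 and also reached beyond a 2-fold fall.

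**Figure D2:**
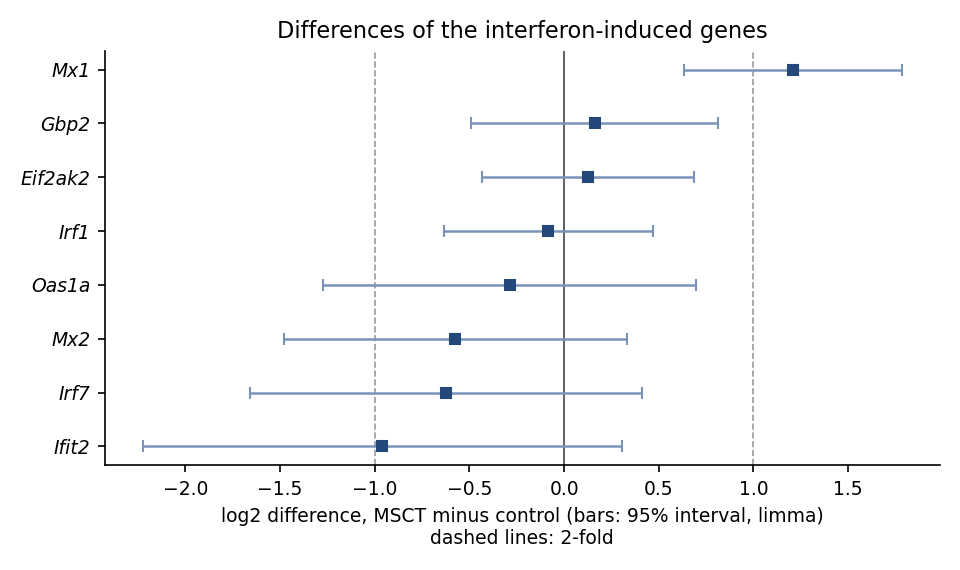
Log2 difference, MSCT minus control (x axis), of the 8 measured interferon-induced genes (y axis), with 95% intervals from limma (bars) and 2-fold in either direction (dashed lines). The interval of Mx1, 0.63 to 1.78, is the 1 that excludes 0; those of Irf1, Gbp2 and Eif2ak2 stay within 2-fold.

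The 8 genes did not move together over the 4 arrays. Of the 28 pairs of genes, 12 had a correlation above 0 and 16 below 0 (Pearson's r from -0.94 to 0.81, median -0.16), values over 4 arrays of 2 groups that are given as a description. The mean log2 intensity over the 8 genes was 9.60 and 9.61 in the control group and 9.36 and 9.59 in the MSCT group. MSCT replicate 1 was the lowest and the other 3 arrays were nearly level.

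Among the other genes of the pathway, fewer ligands and receptors than effectors could be read. Ifng and Ifnb1, the ligands interferon gamma and beta, were blank on all 4 arrays, and Ifngr1, a receptor chain of interferon gamma, was the 1 gene measured of 15 ligands and receptors. Ifngr1 differed by 0.09 (standard error 0.22). Of 12 signal transducers and their inhibitors, 9 were measured. Stat2, which type I interferon receptors activate, was at 1431.4 and 1350.8 in the control group and at 974.8 and 877.1 in the MSCT group, with no overlap. It differed by -0.59 (standard error 0.19, 95% interval -1.09 to -0.08; limma adjusted p = 0.369), below the fold limit of the screen. Irf9, which binds DNA together with Stat2, differed by -0.08 (standard error 0.18). The 4 measured regulatory factors other than Irf1 and Irf7, namely Irf2, Irf3, Irf8 and Irf9, differed by -0.41 to -0.08, and 0 of the 4 had an unadjusted p under 0.05, against 12.0% of all rows, a count too small to read. The 3 measured genes of nucleic acid sensing, Tlr3, Mavs and Myd88, differed by -0.36 to 0.29.

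Over all 6 lists of other pathway genes, 53 of 121 genes were measured, 15 were blank and 53 had no row by name. The screen was passed by 0 of the 53 in the limma fit, against 4.63% of all rows, and none passed an adjusted p of 0.05. An unadjusted p under 0.05 was found for 5 genes (9.43%, against 12.0% of all rows), 4 of them higher and 1 lower. The list of other antiviral genes (22 measured, among them Bst2, Adar and Isg20) had a median difference of 0.01, with 11 genes higher and 11 lower. The list of genes induced mainly by interferon gamma (15 measured) had a median of 0.08, with 11 higher and 4 lower. Of all 6963 named genes, 3882 were higher and 3080 lower, with a median of 0.05.

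The 4 higher genes with an unadjusted p under 0.05, chosen after their values were seen, were Lgals3bp, Cxcl11, Cd74 and Wars1. Cxcl11, a chemokine that draws T cells, was at 252.4 and 283.3 in the control group and at 683.6 and 415.8 in the MSCT group. Its difference of 1.00 (standard error 0.31; limma adjusted p = 0.354) lay just under the fold limit, and it passed the screen after quantile normalization and with equal array medians. By the methods' t-test Cxcl11 (unadjusted p = 0.114) and Cd74 (unadjusted p = 0.0619) were above 0.05, and without control replicate 1 Cxcl11 differed by 0.91 (limma, unadjusted p = 0.104). Cd74, the invariant chain of MHC class II, differed by 0.88 (standard error 0.24), Lgals3bp by 0.68 (standard error 0.19) and Wars1, a tRNA synthetase, by 0.58 (standard error 0.19). Their adjusted p-values were between 0.331 and 0.380 by limma. The subunits of the immunoproteasome, Psmb8, Psmb9 and Psmb10, and the peptide transporters Tap1 and Tap2 differed by -0.02 to 0.23.

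**Figure D3:**
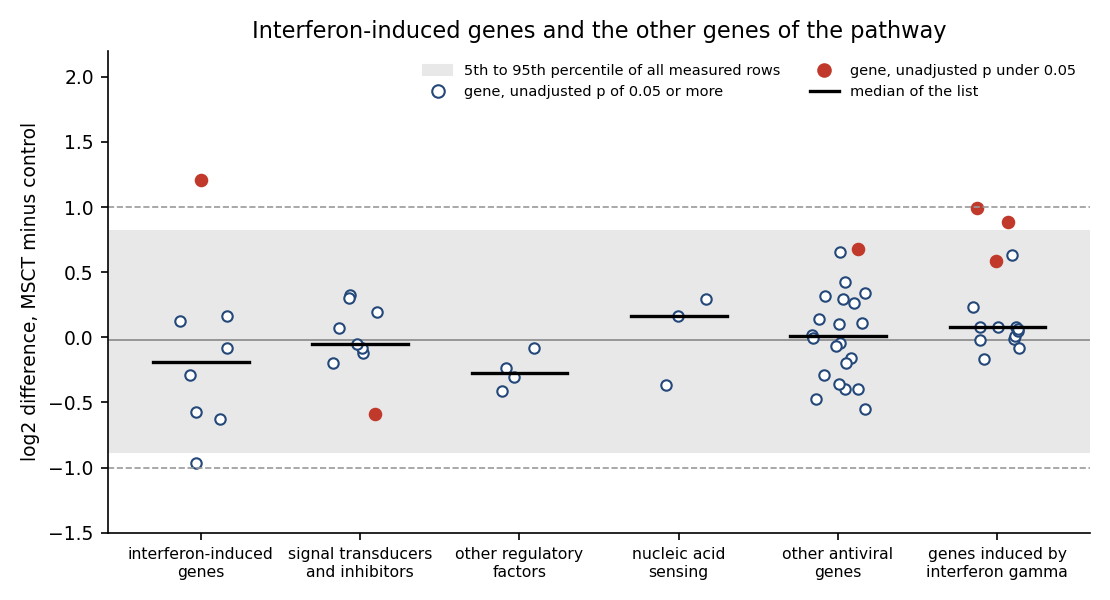
Log2 difference, MSCT minus control (y axis), of each measured gene of the interferon-induced genes and of 5 lists of other pathway genes (x axis); filled points have an unadjusted limma p under 0.05, black bars are list medians, the grey band spans the 5th to 95th percentile of all rows (-0.88 to 0.82) and dashed lines mark 2-fold. Mx1 is the only point of these lists beyond 2-fold, and Cxcl11 lies just under it. Irf9 is drawn in both lists that hold it, and Ifngr1 is not drawn.

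Some markers of leukocytes differed between the groups beside Mx1. Their counts stand against 12.0% of all rows with an unadjusted p under 0.05 and 4.63% past the screen. The mean log2 level of 5 measured of 7 macrophage markers was 10.06 and 10.02 in the control group and 10.72 and 10.87 in the MSCT group. Of the 5, 4 had an unadjusted limma p under 0.05, all higher, and Cd68 (1.29) and Csf1r (1.00) passed the screen. The other, Cd14, was the brightest of the list, at percentile 96.1 of mean intensity. It differed by -0.04 with overlapping groups. The mean of 4 measured of 7 cytotoxic lymphocyte markers was 6.68 and 6.62 in the control group and 8.03 and 8.16 in the MSCT group. All 4 were dim rows, at percentiles from 4.2 (Gzma) to 20.9 (Nkg7) of mean intensity. Of the 4, 2 passed the screen, Gzmb (1.92) and Nkg7 (1.72). By the methods' t-test neither passed (unadjusted p = 0.0627 for Gzmb and 0.0863 for Nkg7), and Csf1r fell just under 2-fold without control replicate 2 (0.96) or MSCT replicate 2 (0.97). The 4 measured T cell markers were at 7.60 and 7.28 in the control group and at 8.13 and 7.95 in the MSCT group, mainly through the kinase Zap70 (1.89), which passed the screen but not by the methods' t-test (unadjusted p = 0.107) nor without either control array. Cd4 (0.37), Cd3g (0.13) and Cd8a (0.0058) overlapped between the groups, and Cd3d, Cd2, Cd5 and Cd8b were blank. The mean of 3 mast cell markers was 7.70 and 7.53 in the control group and 9.18 and 9.05 in the MSCT group. Among these 3 the rise came through the row named Mcpt1, a protease (4.41, limma adjusted p = 0.257). Kit differed by 0.18 and Tpsab1 by -0.09. The row named Mcpt1 rose 21.28-fold, the value the paper lists for Mcpt2, beside a separate rise of Mcpt1. Mcpt2 could not be found by name here, so which of the proteases the row reads is not settled. Mzb1, the 1 measured marker of B and plasma cells and a dim row at percentile 11.6, differed by 1.26 and passed the screen. Plasmacytoid dendritic cells make type I interferon. Of the markers listed for them, Tcf4, Il3ra and Spib were measured, while Siglech and Clec4c had no row by name. The mean of the 3 was 10.58 and 10.04 in the control group and 10.06 and 9.91 in the MSCT group. The difference was -0.33, beside a wider gap between the 2 control arrays. Whether these 3 genes read such cells in bulk colon was not tested. Over the same arrays epithelial markers differed by 0.20 and smooth muscle markers by 0.02 in their means. Markers of mesenchymal stem cells, all 5 measured, were at 9.44 and 9.43 in the control group and at 9.87 in both MSCT rats, and 3 of them, Eng (0.85), Icam1 (0.90) and Cd44 (0.99), had an unadjusted p under 0.05. The other 2 lay the other way, Thy1 at -0.22 and Nt5e at -0.34, with overlapping groups. These genes are also expressed by leukocytes or endothelium. The part of other cells in the rise of Mx1 was not tested.

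**Figure D4:**
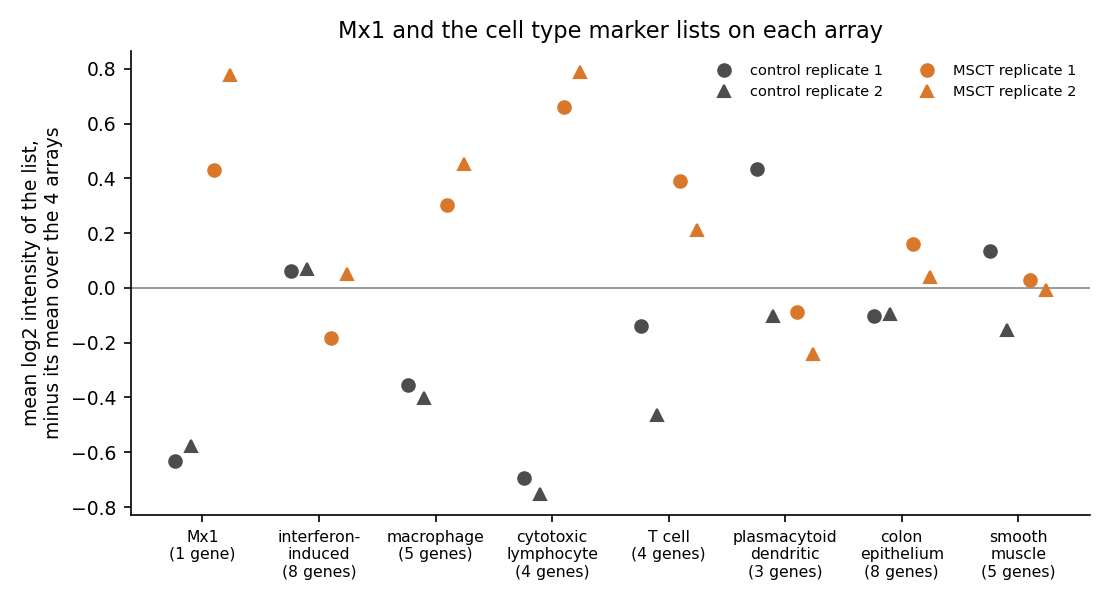
Mean log2 intensity of Mx1, of the interferon-induced genes and of cell type marker lists on each array, minus the mean of the same list over the 4 arrays (y axis), with 1 column per list and the number of measured genes under it. Symbols are as in the plot of the genes by array. Mx1 and the macrophage, cytotoxic lymphocyte, T cell and, by less, epithelial lists lie above 0 on both MSCT arrays and below 0 on both control arrays; the interferon-induced genes as a whole do not. Of the 4 T cell markers, Zap70 alone had groups that did not overlap.

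With Mx1 as the pattern, a choice made after its values were seen, the named gene outside these lists with the most similar profile was Ccr2, a chemokine receptor of monocytes. The root mean square distance of its centered log2 values from those of Mx1 was 0.0185 over 4 arrays. Ccr2 was at 6.88 and 6.95 in the control group and at 7.91 and 8.26 in the MSCT group, and differed by 1.17. Next came Tgfb1, with a distance of 0.0599 and a difference of 1.19, and Pdk4, with a distance of 0.0642 and a difference of 1.19. Palmd (distance 0.0853) and Cxcl12 (distance 0.099) followed. With 4 arrays this is a description, and it says nothing of shared control.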

How the data were processed

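Colon RNA of the control and MSCT groups was copied into cDNA, labeled with Cy3 and read on NimbleGen arrays of a single color, 2 per group. The authors used a GenePix scanner and NimbleScan, and deposited linear intensity per RefSeq transcript. RMA is named in the submitters' processing notes, without its role, and the rule behind blank rows is not given in the sources used here. Of 26420 rows, 18350 had values on all 4 arrays. Accessions were matched without versions to the RefSeq gene table of GRCr8, which named 7062 measured rows (38.5%): 7004 of 7292 curated (NM) and 58 of 11058 predicted (XM) rows. Intensities were converted to log2 with no pseudocount, scaling or filter. MSCT was compared with control on all rows with limma 3.58.1 (lmFit, eBayes) in R 4.3.3, with Benjamini-Hochberg adjustment. The test was checked on simulated data.

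Named are all members, pathway genes past the screen, signal transducers and at most 3 markers per cell type, with the exceptions stated. One item of the rule is not reported here. The members and lists were chosen with earlier results of these data known. Each array was taken as a separate rat, and the number of arrays limits precision: an exact two-sided permutation of 2 against 2 cannot fall below 0.333. Alternatives were an ordinary t-test, other normalizations, filters on dim rows, variance models and weights per array. Others were a block for the replicate number, a fold limit of 1.5, linear means, and each array left out. Python 3.11.15 was used for names, motifs and figures.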

Additional observations from a re-analysis of the deposited data

How the results depend on the processing

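Mx1 kept its direction and passed the screen in all 12 alternatives that held it, with differences from 1.03 to 1.38. Its adjusted p was 0.102 to 0.633 by limma and 0.465 by the ordinary t-test. In the 4 fits without 1 array, a lone array is assumed to vary like the other group. Keeping the brighter 50% of rows only removed Mx1, so that 0 of the remaining interferon-induced genes and 251 rows passed the screen. By the ordinary t-test 388 rows passed and at 1.5-fold 2019 by limma, against 850. Without single arrays, 934 to 1565 rows passed, with 1 to 2 of the interferon-induced genes and 0 to 2 pathway list genes (against 1 and 0). The pathway list count was 1 after quantile normalization, with equal array medians and with linear means, and 4 at 1.5-fold. The median difference of the interferon-induced genes (-0.19) was -0.15 with equal array medians, -0.084 without the lower 25% of rows, -0.29 without the lower 50% and also without Mx1, -0.22 with linear means, and -0.19 to 0.048 without single arrays. Sign changes came without control replicate 2 for Irf1 (range -0.22 to 0.049 without single arrays) and Oas1a (-0.74 to 0.16), without MSCT replicate 2 for Gbp2 (-0.054 to 0.38), without control replicate 1 for Ifngr1 (-0.10 to 0.28), and without 1 array for the markers Cd3g (-0.25 to 0.51), Cd8a (-0.59 to 0.60), Kit (-0.12 to 0.48) and Tpsab1 (-0.42 to 0.24). The cause was not tested.

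The replicate number as a block left the count of interferon-induced genes past the screen at 1, and 971 rows passed. The labels do not say that numbers pair rats, and the deviations of same-numbered arrays correlated with r = 0.234. By limma an adjusted p of 0.05 was passed by 387 rows with the trend and robust variance. It was passed by 4 rows without the lower 25% of rows and by 247 without the lower 50%. In each case 0 interferon-induced genes were among them, and of these genes the filter at 50% kept only Irf1, Irf7 and Oas1a.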
